A study of Mus musculus with 8 samples.

Results

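The nuclear genes for subunits of the oxidative phosphorylation complexes were compared between the left and right heart field of mouse embryos. Members were the protein-coding genes of the count table whose symbol begins with *Ndufa*, *Ndufb*, *Ndufc*, *Ndufs*, *Ndufv*, *Uqcr*, *Cox4i*, *Cox5*, *Cox6*, *Cox7*, *Cox8* or *Atp5*, or is *Sdha*, *Sdhb*, *Sdhc*, *Sdhd* or *Cyc1*, without the *Ndufaf* assembly factors. This gave 86 of 48526 genes, of which 36 belong to complex I, 4 to complex II, 9 to complex III, 20 to complex IV and 17 to complex V. The choice used symbols alone and no measured value.

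All embryos were wild-type males of the C57bl6/J strain at the stage E8.5f, when the heart tube loops. No mutant, treatment or transgene was involved, and left and right are the sides of the same embryos. Their libraries also differed in depth and in markers of several tissues, as given below. The embryos were L29-3, L43-5, L46-8 and L49-3 (n = 4). From each, with heart and back taken away, the tissue between the headfolds and the second somite was microdissected, cut at the midline and sequenced as a left and a right library. The 8 libraries hold between 1147446 and 3520753 counted reads, so 3 reads correspond to between 0.852 and 2.62 CPM (counts scaled to a common library total). This floor covers counting error only. All 9 heart field markers examined were expressed highly enough to be tested, although some were low in L49-3. Markers of other tissues were found as well, so the samples are mixtures of cell types.

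Oxidative phosphorylation takes place in the inner mitochondrial membrane. Complex I (NADH dehydrogenase) and complex II (succinate dehydrogenase) pass electrons to ubiquinone, complex III (cytochrome bc1) passes them on to cytochrome c, and complex IV (cytochrome c oxidase) delivers them to oxygen. Complexes I, III and IV pump protons, and complex V (ATP synthase) uses the gradient to make ATP. Most subunits are encoded in the nucleus and a few in the mitochondrial genome. Adult cardiomyocytes depend heavily on this pathway, whereas the early heart relies more on glycolysis.

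The 86 genes together took 0.707% to 0.775% of the counted reads of a library. Expressed per base, as TPM (reads divided by gene length and scaled to a common total, with the merged exons of each gene as its length), their sum was 1.28% ± 0.108 of all transcripts in left and 1.26% ± 0.0880 in right libraries (SD, n = 4 embryos). Left and right therefore differed by less than the spread between embryos, and the left was higher in 2 of 4 embryos. Complex V took 0.369% ± 0.0297 in left and 0.361% ± 0.0259 in right libraries, and complex I took 0.363% ± 0.0446 and 0.355% ± 0.0208. Complex IV followed with 0.327% ± 0.0132 and 0.326% ± 0.0330. On this scale the ranges of these 3 sums overlapped, although complex V was above complex IV in 8 of 8 libraries and above complex I in 6 of 8. With the length of the longest protein-coding transcript, complex V took 0.506% to 0.603% and no longer overlapped complex I (0.366% to 0.460%) or complex IV (0.331% to 0.408%). Complex III, at 0.162% ± 0.0157 and 0.161% ± 0.0129, lay below them, and complex II, at 0.0568% ± 0.00806 and 0.0529% ± 0.00415, was lowest. In bulk samples, fewer cells of a type and less RNA per cell cannot be told apart. The study reports a high number of duplicate reads, excluded before counting, which can lower the counts of short abundant genes (not tested). The tested members have a median coding transcript of 908 bases, against 3324 for all tested genes. Their sums, ranks and folds per base are therefore less certain.

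**Figure D1:**
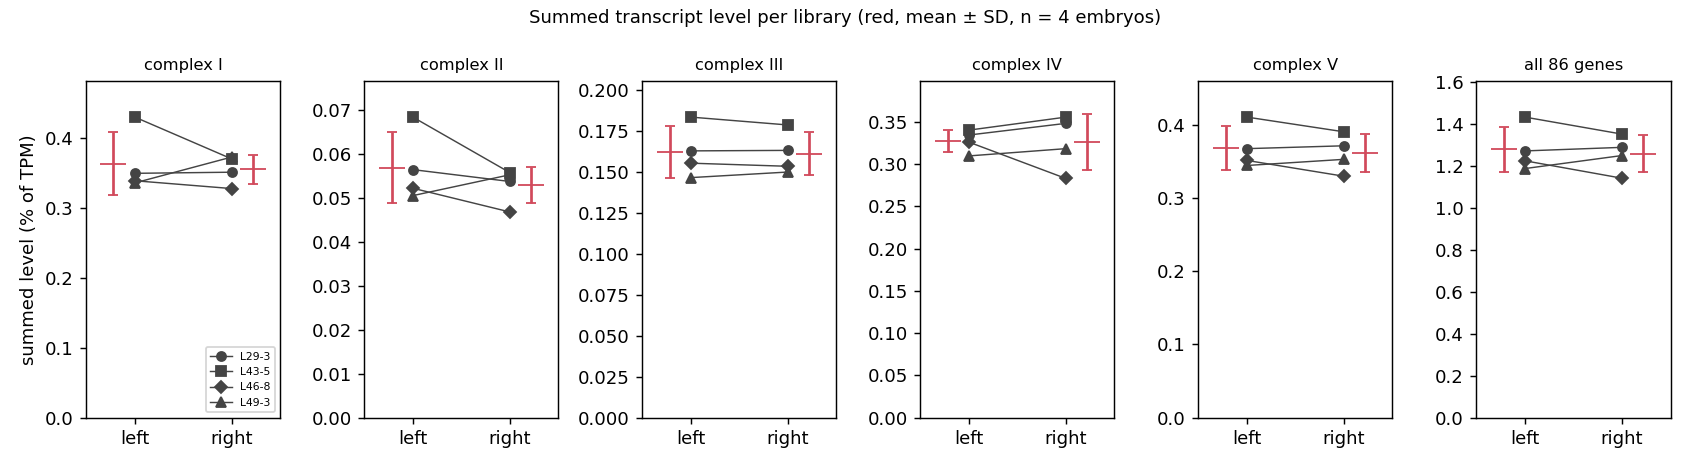
Summed level of each complex and of all 86 genes, as percent of TPM, in the left and right library of each embryo (symbols joined by a line within an embryo), with the mean ± SD of each side in red. The lines rise in some embryos and fall in others, and the sum over all genes stays between 1.14% and 1.43% in the 8 libraries.

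Levels within a complex were not uniform. In complex V, *Atp5b*, the catalytic beta subunit, had 776 TPM and *Atp5l*, subunit g, had 17.7 TPM, the highest and lowest levels among its tested genes. The merged exons of *Atp5l* are long, and with the length of the longest protein-coding transcript its level was 155 TPM, so its place rests on the gene model. On that second scale *Atp5b* was still highest, at 1264 TPM, and *Atp5g1* was lowest, at 38.5 TPM. In complex I, *Ndufa2* was highest with 218 TPM and *Ndufb2* lowest with 8.93 TPM. *Ndufb2* was also lowest by coding transcript, at 8.48 TPM, while *Ndufa7* was then highest, at 226 TPM. The coding transcript used for *Ndufb2* is itself long, at 4371 bases, so its place may also rest on the gene model. In complex II the levels ran from 71.2 TPM for *Sdhc*, a membrane anchor, to 207 TPM for *Sdhd*, the other anchor. By coding transcript *Sdhc* was still lowest, at 53.7 TPM, and *Sdha* was highest, at 179.7 TPM. The coding transcript used for *Sdhc* is long, at 3171 bases against 1142 for *Sdhb*. *Sdhc* had 1248 reads and *Sdhb* 1160, so the place of *Sdhc* may also rest on the gene model. In complex III they ran from 74.0 TPM for *Uqcrq* to 251 TPM for *Uqcrh*, the hinge protein. By coding transcript these 2 had 65.55 and 418 TPM, with lengths of 1521 and 547 bases, so the same limit holds. In complex IV, *Cox8a* had 489 TPM and *Cox6c* had 64.1 TPM. By coding transcript *Cox6c* had 228 TPM, which placed *Cox7a2l*, at 166 TPM, lowest, and *Cox4i1*, at 448 TPM, came above *Cox8a*, at 406 TPM.

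Only genes that reached 20 normalized counts in 4 or more libraries were tested. This filter was passed by 77 of the 86 genes, namely all genes of complexes I, II and III, 12 of complex IV and 16 of complex V. The 9 genes that did not pass were *Cox4i2*, *Cox6a2*, *Cox6b2*, *Cox7a1*, *Cox7b2*, *Cox8b*, *Cox8c*, *Ndufa4l2* and *Atp5s*. The first 8 are paralogues of a widespread subunit with a more restricted expression in adult tissues. *Atp5s* encodes a factor also known as distal membrane arm assembly component 2 like.

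*Cox6a2*, *Cox7a1* and *Cox8b* encode the forms of complex IV subunits that predominate in adult heart and skeletal muscle. *Cox6a2* had 6 reads over the 8 libraries, 5 of them in the right library of L43-5, against 1613 reads of *Cox6a1*. Per base of coding transcript, *Cox6a1* was 320-fold higher (95% exact binomial interval 147 to 874, counting error only). *Cox8b* had 2 reads, 1 in each of the left libraries of L29-3 and L46-8, against 1558 reads of *Cox8a*, which was 509.9-fold higher per base (interval 141 to 4214). *Cox7a1* was the most detectable of the 3 muscle forms, with 27 reads and a normalized count between 0 and 5.87. *Cox7a2* was 37.0-fold higher per base than *Cox7a1* (interval 25.3 to 56.3). All 3 muscle forms were thus far below their widespread paralogues on both sides.

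The promoters of *Cox6a1*, *Cox7a2*, *Cox7a1*, *Cox8a* and *Cox8b* are shown. For *Cox6a2* no promoter was matched, so *Cox6a1* has no muscle form beside it. Whether motifs go with level was not tested. The 5 stretches are the parts of the 250 bases before the RefSeq start (GRCm38.p6) that lie outside annotated exons, written 5′ to 3′ in the direction of the gene. Capitals mark matches, on either strand, to 6 short motifs: NRF1 (GCGC, any base, then TGCGC), ETS (CCGGAAG), SP1 (GGGCGG), YY1 (AAGATGGC), the CCAAT box and the TATA box (TATAAA), where overlapping matches run together. *Cox6a1* lies at chr5:115348982-115349129 on the minus strand, *Cox7a2* at chr9:79759879-79760103 on the minus strand, *Cox7a1* at chr7:30183921-30184143 on the plus strand, *Cox8a* at chr19:7217617-7217866 on the minus strand, and *Cox8b* at chr7:140900447-140900696 on the minus strand.
Cox6a1: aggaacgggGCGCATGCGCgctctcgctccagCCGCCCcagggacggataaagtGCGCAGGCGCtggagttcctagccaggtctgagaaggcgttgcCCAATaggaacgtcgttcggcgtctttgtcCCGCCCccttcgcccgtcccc
Cox7a2: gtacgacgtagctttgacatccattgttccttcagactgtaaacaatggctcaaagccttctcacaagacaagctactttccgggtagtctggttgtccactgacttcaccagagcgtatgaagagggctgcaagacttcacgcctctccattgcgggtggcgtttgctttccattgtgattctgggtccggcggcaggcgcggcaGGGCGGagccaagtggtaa
Cox7a1: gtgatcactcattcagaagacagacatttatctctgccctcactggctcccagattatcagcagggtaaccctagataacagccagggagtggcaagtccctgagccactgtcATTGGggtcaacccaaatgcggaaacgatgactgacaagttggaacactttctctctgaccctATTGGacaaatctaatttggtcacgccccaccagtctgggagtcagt
Cox8a: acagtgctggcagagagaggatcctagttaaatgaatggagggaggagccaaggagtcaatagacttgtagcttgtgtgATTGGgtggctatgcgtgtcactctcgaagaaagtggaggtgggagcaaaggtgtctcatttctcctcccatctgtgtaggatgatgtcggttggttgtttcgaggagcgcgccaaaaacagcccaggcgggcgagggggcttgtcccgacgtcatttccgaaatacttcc
Cox8b: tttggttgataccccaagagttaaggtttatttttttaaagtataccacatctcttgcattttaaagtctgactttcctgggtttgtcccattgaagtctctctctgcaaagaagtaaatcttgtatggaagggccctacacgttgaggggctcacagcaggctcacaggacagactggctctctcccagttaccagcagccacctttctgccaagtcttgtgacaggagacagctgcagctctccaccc

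The stretch of *Cox6a1* held 2 NRF1, 2 SP1 and 1 CCAAT match, that of *Cox7a2* 1 SP1 match, and that of *Cox8a* 1 CCAAT match. The stretch of *Cox7a1* held 2 CCAAT matches and that of *Cox8b* held none of the 6 motifs. A match is a description of the letters and not a binding site. RefSeq promoters were matched for 67 of the 86 genes, 63 of them tested. In the full 250 bases, the NRF1 motif was found in 13 of these 63 genes (20.6%), against 10.7% of the 7433 tested genes of the table with a promoter and 4.23% of all 27025 genes with one. The ETS motif was found in 12 (19.0%, against 17.7% of tested genes), the CCAAT box in 26 (41.3%, against 40.6%) and the TATA box in 5 (7.94%, against 7.10%). The SP1 motif was found in 22 of the 63 genes (34.9%), against 68.3% of tested genes, and YY1 in 1 (1.59%, against 2.61%). Median GC content of the promoters was 56.4% for the tested members and 60.8% for the tested genes.

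Of the other restricted paralogues, *Cox7b2* and *Cox8c*, both known from testis, had 0 reads in every library. With a floor of 3 reads over all libraries, *Cox7b* was at least 286-fold higher per base than *Cox7b2*, and *Cox8a* at least 432-fold higher than *Cox8c*. *Cox4i2*, a form known from lung and from low oxygen, had 108 reads and made up 4.38% ± 1.73 (SD, n = 8 libraries) of the *Cox4i* transcripts per base. *Ndufa4l2*, which is induced by hypoxia, had 109 reads and made up 5.46% ± 3.05 of the *Ndufa4* pair. Neither share was higher on the same side in all embryos, since each was higher on the left in 2 of 4.

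*Cox6b2*, known as a testis form of subunit 6b, was the exception among the low genes. The left libraries of L29-3, L43-5, L46-8 and L49-3 held 14.6, 9.13, 3.26 and 10.8 normalized counts of it, and their right counterparts 4.95, 3.20, 2.54 and 4.99. All 4 embryos had more on the left, with 43 left and 15 right reads in total, although the lowest left value lay within the range of the right. It did not enter the main test. With every gene of at least 1 read tested, its log2 fold change was 1.27 (in edgeR's quasi-likelihood fit, a p of 0.0137, adjusted to 0.997).

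The other families were shared between paralogues. *Cox7a2* and *Cox7a2l*, a factor of supercomplex assembly, had nearly the same number of reads (1357 and 1349), which per base of coding transcript gave *Cox7a2* 62.0% ± 3.76 (SD, n = 8 libraries) and *Cox7a2l* 36.5% ± 3.78 of the family. The *Cox7a2* share was 63.7% ± 4.69 in left and 60.4% ± 1.93 in right libraries (SD, n = 4), higher on the left in each of the 4 embryos. Most of this difference came from L49-3 (70.1% left, 58.6% right), and in L46-8 the sides were nearly equal (59.98% and 59.92%). Subunit c of ATP synthase is encoded by 3 genes with the same mature protein. Of their 5478 reads, 49.4% were from *Atp5g3*, 26.8% from *Atp5g2* and 23.8% from *Atp5g1*. The transcript of *Atp5g1* used for its length holds 4715 bases with repeated sequence, so its level per base is uncertain.

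**Figure D2:**
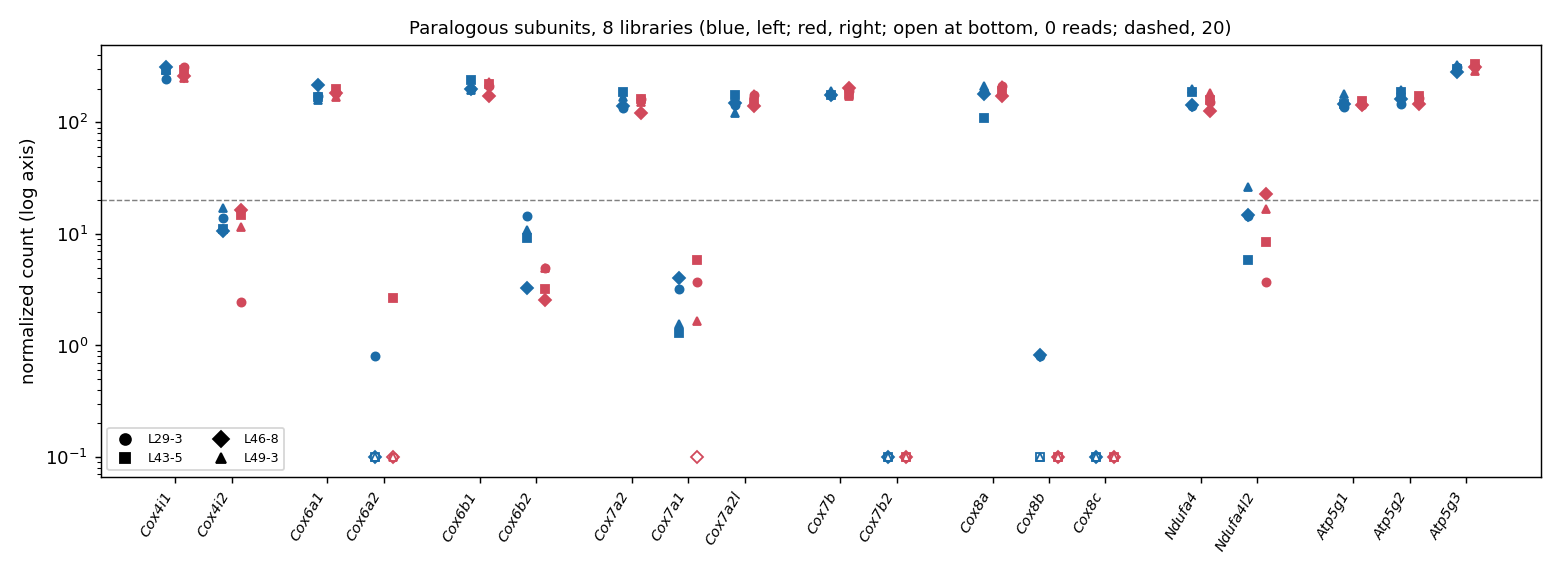
Normalized count (log axis) of the paralogous subunits in the 4 left libraries (blue) and 4 right libraries (red), with a symbol for each embryo, open symbols at the bottom for 0 reads and a dashed line at 20. The widespread forms lie well above 20 in every library, *Cox6a2*, *Cox7b2*, *Cox8b* and *Cox8c* are at or near 0, and the blue points of *Cox6b2* lie above the red point of the same embryo.

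The sides were compared to find whether any subunit gene is asymmetric at the stage when left and right heart precursors differ in Nodal signaling. None of the 77 tested genes had an adjusted p under 0.05 with edgeR's quasi-likelihood test and the embryo as a block, where 0.0103% of all 9744 tested genes did. An unadjusted p under 0.05 was reached by 3 of the 77 genes (3.90%), near the 4.36% of all tested genes, and the adjusted count was also 0 with DESeq2 and limma-voom. The threshold of the study, a 1.2-fold difference and an unadjusted p no larger than 0.05, was applied here to edgeR alone. The study accepted genes that met it with limma-voom, DESeq2 or edgeR, so its own list is wider. In edgeR 2 genes passed (2.60%), a share near the 3.05% of all tested genes. Both were lower on the left, a direction taken by 1.42% of all tested genes. The count was 0 without L29-3, 5 without L49-3 and 0 with DESeq2, where 3.61%, 2.86% and 0.575% of all tested genes passed. With limma-voom it was 3, where 3.09% of all tested genes passed. There *Cox8a* passed as well, 1.23-fold lower on the left with a p of 0.0478 in limma-voom. Its values, low in 1 library, are given below.

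*Ndufc2*, an accessory subunit of complex I on chromosome 7 from 97400003 to 97407802 of GRCm38, was the first of these. On the left it had 73.8, 88.0, 78.1 and 82.1 normalized counts in L29-3, L43-5, L46-8 and L49-3. On the right it had 104, 90.7, 123 and 98.1 in the same order. All 4 embryos had less on the left and the groups did not overlap, although in L43-5 the sides were close. Its log2 fold change was -0.35 (standard error 0.138, 95% interval -0.65 to -0.05; in edgeR's quasi-likelihood fit, a p of 0.0245, adjusted to 0.9875). The p was 0.0867 without L29-3, 0.137 without L46-8 and 0.113 with DESeq2. No other transcript near-identical to *Ndufc2* was found.

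*Cox5b*, a nuclear subunit of complex IV on chromosome 1 from 36691449 to 36693681, was the second. Its normalized counts were 216, 121, 207 and 231 on the left and 265, 239.6, 204 and 226 on the right, in the same order of embryos. The sides overlapped, and only 2 of 4 embryos had less on the left. The log2 fold change was -0.34 (standard error 0.146; in edgeR's quasi-likelihood fit, a p of 0.0375, adjusted to 0.9875). Without L43-5 it was -0.10 with a p of 0.397, so that the call rests on that embryo. It was also lost without L29-3, with a p of 0.0666, and without the embryo as a block, with a p of 0.100. A near-identical transcript of another gene had 378 reads, against 1814 of *Cox5b*, so its counts are less certain.

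*Atp5j*, a subunit of the peripheral stalk of ATP synthase, had the third unadjusted p under 0.05 and is named after its values were seen. Left libraries had 143 ± 13.9 normalized counts of it and right libraries 173 ± 24.3 (SD, n = 4). Its log2 fold change of -0.26 with a p of 0.0478 in edgeR was just under the fold of 1.2. Its exons overlap 397 bases of *Gabpa* on the opposite strand, whose reads cannot be told apart where strand was not used in counting.

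**Figure D3:**
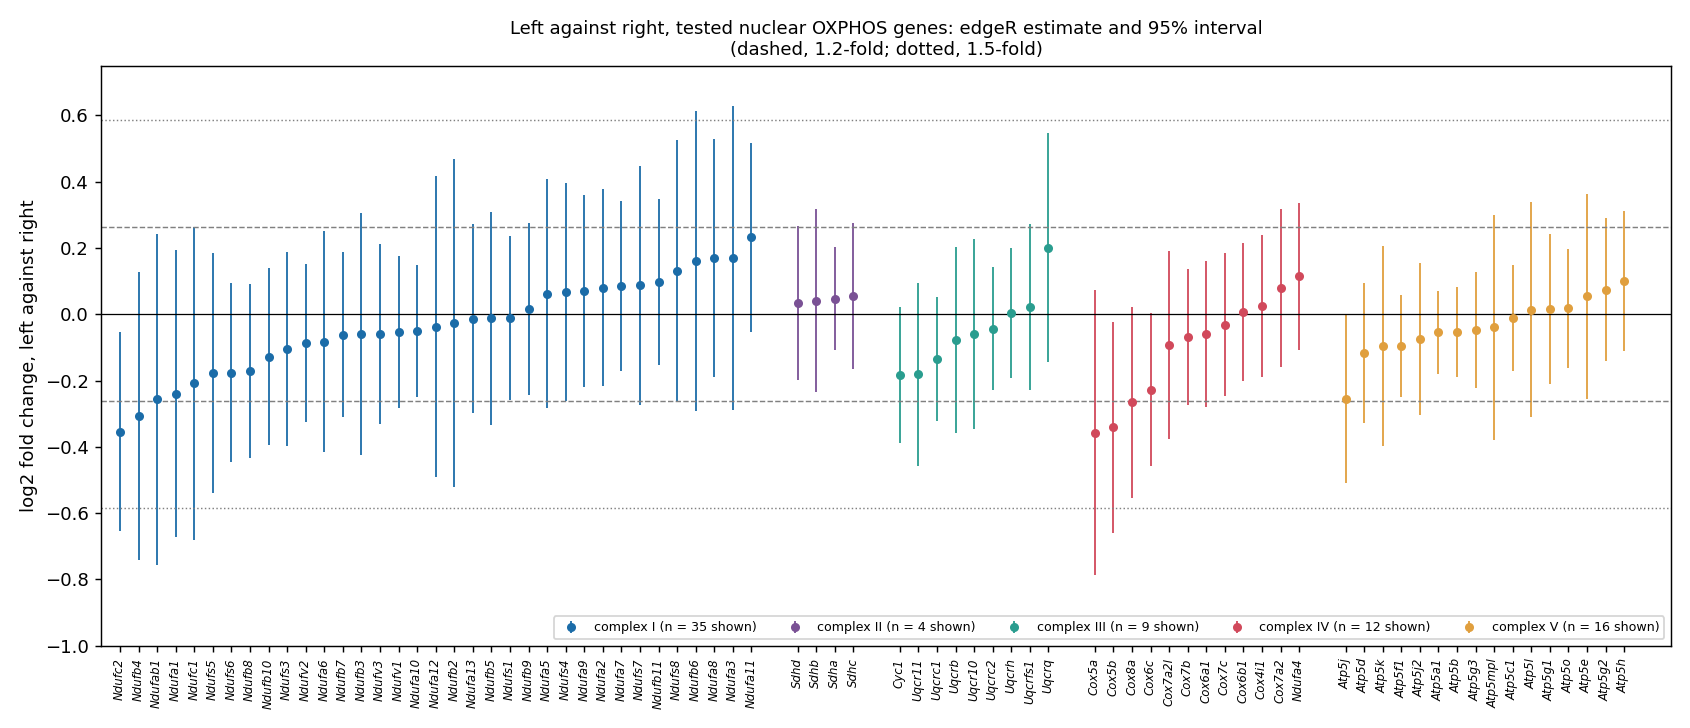
Log2 fold change of left against right for 76 of the 77 tested genes, ordered within each complex, with 95% intervals from edgeR and lines at 1.2-fold (dashed) and 1.5-fold (dotted) either way. The points scatter around 0 in every complex, and the intervals of *Ndufc2*, *Cox5b* and *Atp5j* alone lie wholly below 0.

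The intervals also bound what these data could have missed. For 16 of the 77 genes (20.8%) the whole 95% interval lay within 1.2-fold either way, against 18.8% of all tested genes. For 68 genes (88.3%) it lay within 1.5-fold either way, against 74.2%. The tested members also had higher counts, with a median of 131 normalized counts against 91.5 over all tested genes. Their median standard error was 0.123, against 0.140. The part of count in these shares was not tested. The 16 genes include *Atp5a1* and *Atp5b*, the alpha and beta subunits of the ATP synthase head, and *Sdha*, the flavoprotein of complex II. *Atp5b* had 1970.0 ± 82.4 normalized counts in left and 2038 ± 116 in right libraries, and its log2 fold change had an interval from -0.19 to 0.08. *Atp5a1* had 1360.0 ± 44.5 and 1412 ± 76.2, with an interval from -0.18 to 0.07. *Sdha* had 437 ± 22.3 and 424 ± 22.2, with an interval from -0.11 to 0.20. Differences above 1.2-fold are therefore outside the intervals of these abundant genes. The 9 genes whose interval passed 1.5-fold were *Ndufa1*, *Ndufa3*, *Ndufab1*, *Ndufb4*, *Ndufb6*, *Ndufc1*, *Ndufc2*, *Cox5a* and *Cox5b*, 7 of them in complex I.

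Over the 77 genes the median log2 fold change was -0.04, where it was -0.0042 over all tested genes, and 31 genes had a positive and 46 a negative estimate. Taken embryo by embryo, the median over the members was -0.09 (L29-3), 0.05 (L43-5), -0.02 (L46-8) and -0.09 (L49-3), so it changed sign between embryos. In 5 of the 77 genes (6.49%) all 4 embryos went the same way, against 12.4% of all tested genes. Besides *Ndufc2* these were *Ndufb4*, *Ndufb10* and *Cox6c*, with lower values on the left, and *Ndufa11*, with higher values on the left. None of these other 4 genes passed the threshold of the study.

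The 36 genes of complex I had a median log2 fold change of -0.03, from -0.35 for *Ndufc2* to 0.23 for *Ndufa11*, an accessory subunit of the membrane arm. The core subunits, which carry the flavin and the iron-sulfur clusters, had a median of -0.01 over 7 genes, and the 29 others had -0.04. *Ndufs1*, which holds iron-sulfur clusters, had 178 ± 31.8 normalized counts in left libraries and 181 ± 14.3 in right ones. *Ndufv1*, which binds NADH, had 129 ± 3.15 and 134 ± 11.5. Neither passed the threshold, with log2 fold changes of -0.01 and -0.05.

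The genes of complex II had log2 fold changes from 0.03 to 0.06, all 4 positive but none past the threshold. *Sdhb*, the iron-sulfur subunit, had 136 ± 13.7 in left and 134 ± 34.8 in right libraries. In complex III the median was -0.06 over 9 genes, from -0.18 for *Cyc1* (cytochrome c1) to 0.20 for *Uqcrq*. *Cyc1* had 211 ± 14.5 against 237 ± 19.98 (left against right), and 3 of 4 embryos had less on the left, with a p of 0.0761 in edgeR. *Uqcrc1*, a core protein, had 276 ± 20.9 and 301 ± 24.3, and *Uqcrfs1*, the Rieske protein, had 119.6 ± 6.94 and 117 ± 16.5. No gene of complex III passed the threshold.

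The median was -0.06 over the 12 tested genes of complex IV and -0.04 over the 16 of complex V. *Cox4i1*, the largest nuclear subunit, had 287 ± 28.9 in left and 279.9 ± 27.7 in right libraries, with a log2 fold change of 0.02. The lowest estimates of complex IV were -0.36 for *Cox5a*, -0.34 for *Cox5b* and -0.27 for *Cox8a*. Each had an SD on the left well above that on the right, and the values by library show that 1 library set it.

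In the left library of L43-5, *Cox5a* had 69.1 normalized counts, against 134 to 170.3 in the other left libraries and 142 to 172 on the right. *Cox8a* had 109.5 there, against 173 to 216 in the other 7 libraries. *Ndufab1*, the mitochondrial acyl carrier protein, had 58.0 there and 64.8 in the right library of L49-3, and between 93.6 and 128 in the other 6. Compared with the median of the other 7 libraries, this library was lower by -1.12 on the log2 scale for *Cox5a*, -0.91 for *Cox5b*, -0.81 for *Cox8a* and -0.76 for *Ndufab1*. The next lowest of the 77 genes, *Atp5d*, was at -0.36. The genes *Ndufab1* and *Atp5d* are named after their values were seen.

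These 4 genes (5.19% of the 77) lay below -0.6 in that library, against 1.84% of the 8430 genes with at least 20 normalized counts in every library. In the other 7 libraries, 2 tested members lay below -0.6, *Ndufs7* and *Sdhb*, both in the right library of L46-8. That was 2.60% of the members there, against 1.80% of the 8430 genes. Over all these genes the share was highest in L49-3, at 4.45% on the left and 3.48% on the right, with 0 members in either library. The left library of L43-5 was not low for the pathway as a whole, since its summed level of 1.43% of TPM was the highest of the 8. Its total of 2864915 reads was the second highest. The genes low in this library had a median GC content of 56.8%, against 49.7% over the 8430 genes, while *Cox8a* had 58.5%, *Ndufab1* 45.3%, and *Cox5a* and *Cox5b* 49% each. The part of GC content or of the library in these values was not tested. Without L43-5, the log2 fold change was 0.00078 for *Cox5a*, -0.06 for *Cox8a* and 0.07 for *Ndufab1*, and the median of complex IV was -0.02.

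**Figure D4:**
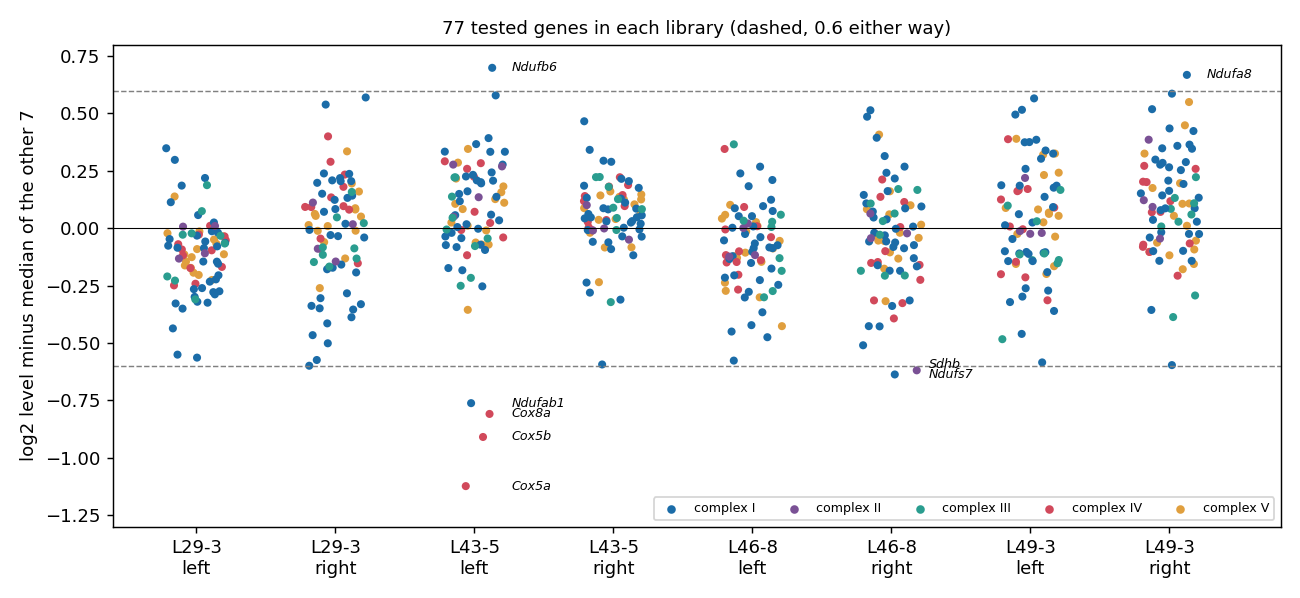
Log2 level of each of the 77 tested genes minus its median in the other 7 libraries, for each library, coloured by complex, with dashed lines at 0.6 either way and names beyond them. In the left library of L43-5, *Cox5a*, *Cox5b*, *Cox8a* and *Ndufab1* lie apart below the other genes.

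Between embryos, with the side as a covariate, no member had an adjusted p under 0.05 in edgeR's quasi-likelihood test, where 0.174% of all tested genes did. An unadjusted p under 0.05 was reached by 2 of 77 members (2.60%), against 9.996% of all tested genes, and the adjusted count was 0 in DESeq2 and limma-voom as well. The smallest p was that of *Ndufa4*, a subunit now placed in complex IV, at 0.0193 (adjusted p of 0.362). The means of both sides in L29-3, L43-5, L46-8 and L49-3 were 147, 173, 134 and 192 normalized counts. *Ndufa11* followed with means of 59.7, 90.7, 83.7 and 71.1 and a p of 0.0305 in the same test. *Ndufa7*, *Ndufa1* and *Ndufa8*, all accessory subunits of complex I, came next with p-values of 0.0505, 0.0511 and 0.0546 in edgeR. *Ndufa1* was lowest in L46-8 (29.7) and highest in L49-3 (58.6), and *Ndufa8* ran from 63.1 in L29-3 to 99.97 in L49-3. The median range over the 4 embryos was 0.29 on the log2 scale for the members and 0.32 for all tested genes. These values make no allowance for the higher counts of the members.

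Cardiomyocyte and neural tube markers varied widely between libraries, while the subunit genes kept a similar share of the reads. The summed level of 11 cardiomyocyte markers, including *Tnnt2* (cardiac troponin T) and *Myh6* (alpha myosin heavy chain), ranged from 456 to 3654 CPM on the left and from 1274 to 3399 CPM on the right. It was 456 CPM in the left library of L49-3 and 1477 CPM in the right, while the 86 subunit genes took 0.742% and 0.758% of the reads there. In the library with most cardiomyocyte markers, the left of L29-3, they took 0.707%. None of the 9 tested cardiomyocyte markers passed the threshold between sides, and *Nppa*, the atrial natriuretic peptide, had 1 read in all libraries. Neural tube markers summed to 155 to 365 CPM on the left and 180.2 to 414 CPM on the right. Of 5 tested, *Sox1* and *Pax6*, which mark neural progenitors, passed the threshold, with log2 fold changes of -0.98 and -0.83. Both had an adjusted p of 0.9875 in edgeR. In L29-3 both went the other way (*Sox1* 66.5 left and 52.0 right, *Pax6* 70.5 and 39.6). Over the 5 genes the log2 fold changes ran from -0.98 to -0.01, with a median of -0.19. Foregut endoderm markers stayed between 394 and 460.4 CPM, endothelial markers between 276 and 508 CPM, and surface ectoderm markers between 491 and 819 CPM. Primitive blood markers reached 28.2 CPM at most. The part of tissue composition in *Ndufc2* and *Cox5b* was not tested.

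**Figure D5:**
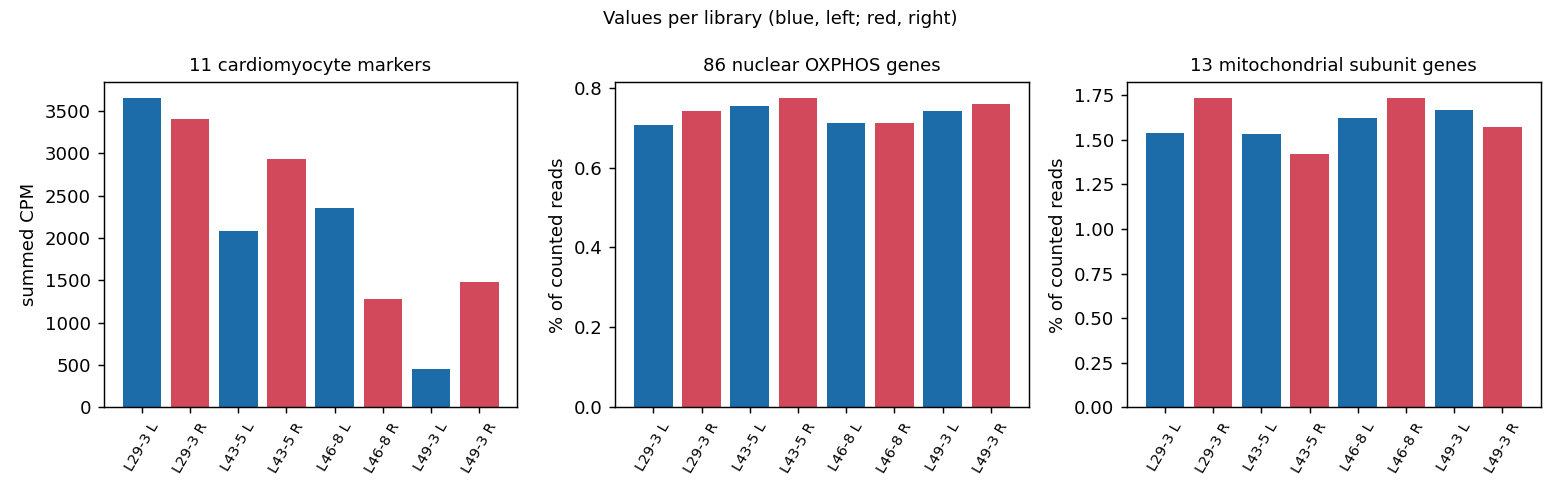
Summed CPM of 11 cardiomyocyte markers (left panel), and the percent of counted reads in the 86 nuclear genes (middle) and in the 13 subunit genes of the mitochondrial genome (right), for each library (blue, left; red, right). The marker sum runs from 456 to 3654 CPM, while the nuclear genes stay between 0.707% and 0.775% and the mitochondrial genes between 1.42% and 1.74%.

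Genes that work with the subunits were compared in the same way. Over 8 lists (assembly factors of each complex, electron carriers and quinone synthesis, transcription regulators of mitochondrial genes, and the TCA cycle), 79 genes were tested and 1 passed the threshold of the study, against 3.05% of all tested genes. This was *Lyrm2*, an LYR motif protein linked to complex I assembly, with 31.6 ± 6.56 normalized counts in left and 15.7 ± 6.62 in right libraries (SD, n = 4). Its log2 fold change was 0.88 (standard error 0.310; in edgeR's quasi-likelihood fit, a p of 0.0153, adjusted to 0.9875), and 4 of 4 embryos had more of it on the left.

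*Cycs*, cytochrome c, carries electrons from complex III to complex IV. Its counts were 163 ± 10.99 in left and 186.5 ± 19.5 in right libraries, and 4 of 4 embryos had less on the left. The log2 fold change was -0.20, below the fold of the study, with a p of 0.0464 in edgeR. The regulators *Nrf1*, *Gabpa* and *Tfam*, which act on nuclear and mitochondrial respiratory genes, had log2 fold changes of 0.07, 0.10 and -0.10, with none past the threshold. *Ppargc1a*, a coactivator of mitochondrial biogenesis, did not pass the filter, with 11.2 ± 7.44 normalized counts in left and 10.1 ± 5.76 in right libraries. The 16 genes of the TCA cycle had a median of -0.08, with all 16 intervals within 1.5-fold and none past the threshold.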

How the data were processed

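Counts of reads per gene were deposited by the authors, not normalized, for 48526 genes in 8 libraries. The authors aligned paired-end reads of polyadenylated RNA to GRCm38 with Hisat2, excluded duplicates, which can lower the counts of short abundant genes (not tested), and counted with featureCounts; versions and strand setting are not given in the sources used here. The submitters' processing notes also name DESeq2 and limma 3.40.6. Symbols and lengths were taken from GENCODE vM21 (48144 of 48526 identifiers matched).

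edgeR 4.0.16 (R 4.3.3; TMM, quasi-likelihood test, embryo as a block) served to compare the sides over the 9744 genes that reached 20 DESeq2-normalized counts in 4 or more libraries, with Benjamini-Hochberg adjustment over all of them. Embryos were compared in the same fit. The threshold of the study asks for a 1.2-fold difference and an unadjusted p no larger than 0.05. It was applied to 1 method at a time, here edgeR unless named otherwise, whereas the study accepted any of limma-voom, DESeq2 and edgeR. Values are DESeq2-normalized counts, and ratios of single embryos use CPM with a pseudocount of 0.5. Both sides of an embryo come from the same animal, which pairs them. The correlation of their deviations over all tested genes was 0.165, 0.190, -0.02 and 0.437 in L29-3, L43-5, L46-8 and L49-3. Over the 77 tested members it was 0.107, -0.063, 0.147 and 0.023, so the sides shared little variation in these genes. Alternatives used DESeq2 1.42.0, limma-voom 3.58.1, other scalings and filters, and each embryo left out. The scripts were tested on simulated data. Near-identical transcripts (90% identity over 100 bases, blastn 2.17.0) were found for 53 members, or 47 with protein-coding transcripts of the member alone, and their counts are less certain. Without a stated strand setting, 27 members overlap exons of a gene on the other strand.

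The members, the gene lists and the tests were chosen with earlier results of these data known. Named were members past the threshold, the highest and lowest per base of each complex, paralogous families, core subunits and the 5 smallest p-values between embryos. A gene that this rule names is not reported here.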

Additional observations from a re-analysis of the deposited data

Results flagged for a closer look

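In groups of 4 libraries or 4 embryos, a value was singled out where its gap to the nearest other value was over 0.829 of the whole range, Dixon's 95% limit. This was examined in 118 groups and met in 9, and chance gives about 1 in 20. *Cox5a* had a log2 ratio of left to right of -1.31 in L43-5, against -0.08 to 0.10 in the other embryos. In the left library of L43-5, *Cox6b1* had 239.9 normalized counts (193.5 to 199 in the others), *Sdha* had 470.1 (421 to 429), and the summed level of complex I was 0.429% of TPM (0.335% to 0.349%). In L29-3, the log2 ratio was -0.24 for *Cox7a2* (0.16 to 0.20 in the others) and -0.78 for *Ndufa1* (-0.08 to 0.04). In the left library of L49-3, *Cox7b* had 192 normalized counts (175.1 to 175.8) and *Ndufb2* had 40.3 (26.8 to 28.5). In L46-8, *Ndufv1* had a log2 ratio of 0.14 (-0.13 to -0.10).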

How the results depend on the processing

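Under every alternative run, 0 members had an adjusted p under 0.05, between sides or between embryos, with 77 members tested (84 with no filter, 24 and 30 in the sets without near-identical transcripts). The median log2 fold change of the members stayed between -0.05 with no replicate block and -0.01 without L49-3; without the block, which ignores the pairing by embryo, it was -0.0452, 2 members passed the threshold of the study (*Ndufc2* and *Atp5j*), and no call by adjusted p changed. The number of members past that threshold was 2 in the main analysis, 4 with no filter (2.88% of all genes tested passed), 0 with DESeq2 (0.575%), 1 among members without a near-identical transcript (by either definition, of which the protein-coding one was added after seeing the data) and 0 (without L29-3, 3.61%) to 5 (without L49-3, 2.86%) when single embryos were left out. Among members without any near-identical transcript, the median was -0.13 over 3 genes of complex III and -0.16 over 2 of complex IV (*Cox6a1* and *Cox8a*, the latter low in the left library of L43-5), against -0.06 for both; by the protein-coding definition it was -0.03 over 4 genes of complex IV, and the median of complex I was 0.01 without L49-3. With single embryos left out, the log2 fold change ranged from -0.485 without L49-3 to 0.000783 without L43-5 for *Cox5a*, and from -0.532 to 0.0685, for the same embryos, for *Ndufab1*. Genes of low count such as *Ndufb4* and *Ndufc1* had wide intervals, but so did *Ndufab1* and *Cox5a*, which have more reads. The summed level of all members was 1.27% of TPM by merged exons, 1.43% by longest transcript and 1.56% by longest protein-coding transcript, and that of complex V was 0.365%, 0.490% and 0.546%.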

Other observations

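The 13 subunits encoded by the mitochondrial genome took 1.42% to 1.74% of the counted reads. Of these genes, 7 were tested and none passed the threshold between sides, with log2 fold changes from -0.06 to 0.06. Their reads were spread very unevenly: *mt-Co1* had 67922 reads in all libraries and *mt-Cytb* 51617, but *mt-Nd3* had 162, *mt-Co2* 130, *mt-Atp6* 69, *mt-Co3* 51, *mt-Atp8* 19 and *mt-Nd4l* 13. The annotation holds copies on chromosome 1 that are 100% identical over 681 bases of *mt-Co2*, 678 of *mt-Atp6*, 783 of *mt-Co3* and 294 of *mt-Nd4l*, and 99.7% identical over 345 bases of *mt-Nd3*. Those copies had between 8 and 100 reads each. For *mt-Atp8* no copy of 100 bases or more was found among the transcripts. *mt-Nd4* has such a copy over 876 of its 1378 bases and had 17346 reads. How reads that match several places were counted was not tested, and the level of these 6 low genes is uncertain.

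Among rows whose symbol fits the rule but which are not protein-coding, 11 rows held 264 reads together.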
